A study of Mus musculus with 24 samples.

Results

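The 39 genes described here code for the kinetochore and for the spindle checkpoint of mouse cells. They were listed by symbol for their known roles, and each symbol matched 1 of the 49315 genes in the count files. RNA was sequenced from primary astrocytes of the cortex of C57BL/6J wild type mouse embryos (E18.5), with the embryos of one pregnant mouse pooled in each isolation and cells used in passage 1. The cultures were mock-irradiated (0 Gy) or exposed to 0.1 Gy or 2 Gy of X-rays and were harvested 6 h or 24 h later. Each of the 6 groups held 4 libraries, numbered as replicates 1 to 4, so that 24 libraries were compared in all. All groups shared strain, genotype and culture conditions, and no group received a further agent.

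The kinetochore is the protein plate that forms on the centromere of each chromosome in mitosis and holds the microtubules of the spindle. Its inner layer, the constitutive centromere-associated network (CCAN), sits on chromatin marked by the histone variant CENP-A, and its outer layer (the KNL1, MIS12 and NDC80 complexes) binds microtubules. Checkpoint proteins gather on kinetochores that hold no microtubules and delay anaphase. Most of these genes are transcribed in dividing cells, with their highest levels around G2 and mitosis.

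The promoters of several members are shown because such genes often carry CCAAT boxes, the letters bound by the factor NF-Y, and a cell cycle genes homology region (CHR), bound by the MuvB complexes. Each stretch holds the 120 bases before the RefSeq start (GRCm38.p6), written 5′ to 3′ on the strand of the gene, and capitals mark CCAAT or its reverse ATTGG and the CHR letters TTTGAA or TTCGAA or their reverse. *Bub1*, *Spc25*, *Ttk* and *Cenpn* were lower at 24 h after 2 Gy, *Knl1* was lower with no match in this stretch, and *Cenpw* was not called.
Bub1, chr2:127831860-127831979, minus strand: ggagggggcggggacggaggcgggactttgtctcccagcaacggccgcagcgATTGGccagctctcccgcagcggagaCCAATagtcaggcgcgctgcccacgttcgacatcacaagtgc
Spc25, chr2:69206214-69206333, minus strand: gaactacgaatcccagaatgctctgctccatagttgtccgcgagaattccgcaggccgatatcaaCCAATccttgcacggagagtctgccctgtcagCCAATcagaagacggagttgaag
Ttk, chr9:83834569-83834688, plus strand: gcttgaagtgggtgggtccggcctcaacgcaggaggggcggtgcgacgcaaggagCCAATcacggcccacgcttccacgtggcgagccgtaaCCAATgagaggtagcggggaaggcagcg
Cenpn, chr8:116921620-116921739, plus strand: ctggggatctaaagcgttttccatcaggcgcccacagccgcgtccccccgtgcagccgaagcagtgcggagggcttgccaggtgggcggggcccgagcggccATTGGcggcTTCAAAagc
Cenpw, chr10:30200541-30200660, minus strand: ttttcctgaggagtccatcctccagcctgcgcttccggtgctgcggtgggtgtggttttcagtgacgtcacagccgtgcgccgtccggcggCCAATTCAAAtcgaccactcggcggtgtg
Knl1, chr2:119046999-119047118, plus strand: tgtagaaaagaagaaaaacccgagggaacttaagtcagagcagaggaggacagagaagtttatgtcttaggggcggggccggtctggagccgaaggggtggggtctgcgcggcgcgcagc

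In *Cenpw* the CCAAT box and the CHR share 1 T. Over the whole RefSeq windows, 250 bases before to 50 after the start, 34 of the 39 members had an entry. CCAAT on either strand was found in 23 of them (67.6%), against 41.1% of all 27025 genes with a window. A CHR was found in 17, against 21.7% of all genes, and both motifs stood in 14 (41.2%), against 8.61%. The E2F letters TTTCCCGC, TTTCGCGC, TTTGCCGC or TTTGGCGC were found on either strand in 3 members (8.82%), against 2.6%. Among the 17491 protein-coding genes, the shares were 42.3% for CCAAT, 20.2% for a CHR, 8.22% for both and 3.29% for E2F. A gene with several windows, as 3 members had, counted when any window matched. Of the 25 members with a window that were lower at 24 h after 2 Gy, 19 held CCAAT and 14 a CHR. Of the 9 that were not called, 4 held CCAAT and 3 a CHR. A match describes these letters and not a bound site.

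**Figure D1:**
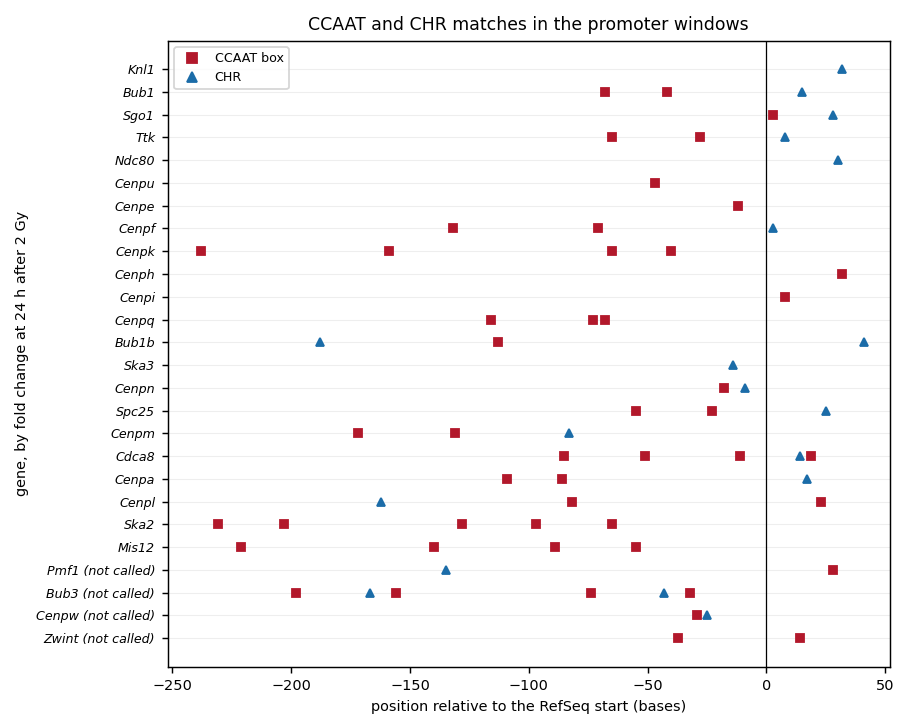
Positions of CCAAT (squares) and CHR (triangles) matches on either strand within 250 bases before and 50 bases after the RefSeq start, for each member with a match, ordered by its log2 fold change at 24 h after 2 Gy. In *Bub1* the CCAAT matches begin at -68 and -42 and the CHR match at 15, and in *Cenpw*, which was not called, they begin at -29 and -25.

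The libraries held 14742855 to 38194800 counts, of which 9582 to 32581 fell on the 39 genes. All 39 passed edgeR's filter on low counts in each of the 7 comparisons. Values of single libraries are CPM, the counts scaled to the size of the library, after TMM normalization over the 24 libraries. Astrocyte markers summed to 2591 to 3692 CPM in the single libraries, and all 12 were detected in every group. Markers of microglia (14 genes) summed to 394 to 459 CPM in the replicate 2 libraries and to 2373 to 3879 CPM in the others, and fibroblast and vessel markers to 4261 to 8851 CPM. The lowest and highest sums of neuron markers were 416.2 and 737.9 CPM, and those of the oligodendrocyte lineage were 410.6 and 898.7 CPM. Replicate 3 at 24 h stood apart for several members, such as *Mad1l1* at 29.9 CPM in mock-irradiated cells against 13.99 to 16.3 CPM in the other 3 libraries. *Cldn5* of the vessel markers was at 0 in 3 groups and *Mobp* of the oligodendrocyte markers in 1. The part of these differences in the results was not tested.

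Members differed widely in level in mock-irradiated astrocytes at 24 h. Per kilobase of exon, *Zwint* stood highest at 49.8 ± 6.64 CPM per kb (mean ± SD, n = 4), followed by *Incenp* at 15.2 ± 4.19 and *Mis12* at 15.03 ± 0.247 CPM per kb, a pair that did not differ beyond its spread. The lowest levels were those of *Cenpw* (0.583 ± 0.213 CPM per kb), *Cenpu* (0.858 ± 0.146 CPM per kb) and *Cenpo* (1.16 ± 0.0630 CPM per kb). The remaining members lay between these, *Ndc80* at 5.47 ± 0.374 CPM per kb and *Bub1* at 4.83 ± 1.16 CPM per kb among them. The exon length used counts all annotated exons of a gene, which lowers this scale for genes with long alternative exons.

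At 24 h after 2 Gy, the kinetochore and checkpoint genes were lower as a group than in mock-irradiated cells of the same age in culture. Of 39 members, 30 were lower and 0 higher at an adjusted p under 0.05, in a fit that pairs libraries by replicate number. Among all 15892 genes tested, 6.69% were lower and 6.53% higher by this rule. A log2 fold change of -1 or lower together with that adjusted p was reached by 15 members and by 0.61% of all genes. The median log2 fold change of the members was -0.84, that of all genes 0.0045, and 36 members had a negative value. In bulk RNA, fewer dividing cells and less RNA per cell cannot be told apart.

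**Figure D2:**
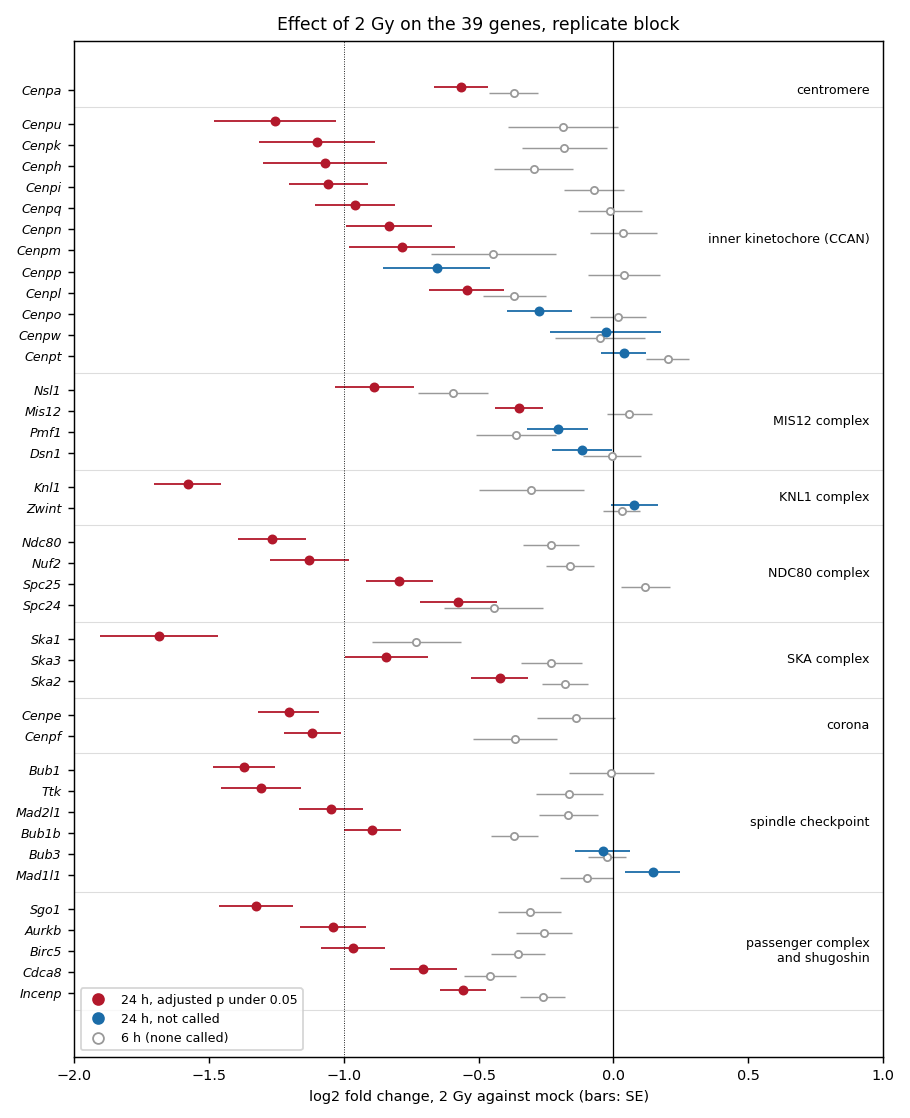
Log2 fold change of each member after 2 Gy against mock-irradiated cells, with its standard error, at 24 h (filled) and 6 h (open), grouped by role. At 24 h the values run from -1.69 (*Ska1*) to 0.15 (*Mad1l1*), and at 6 h from -0.73 (*Ska1*) to 0.20 (*Cenpt*).

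These calls rest on the pairing. Without it, edgeR called 0 members (29 at an unadjusted p under 0.05, against 3.59% of all genes) and 0 genes in all, and DESeq2 called 19 members and 0.727% of all genes. With 1 replicate number left out, the paired fit called 15 members without replicate 1, 9 without replicate 2, 32 without replicate 3 and 16 without replicate 4. The same fits called 0.892%, 0.432%, 33.1% and 1.54% of all genes. For the members, the median log2 fold change was -0.85 without the pairing and lay between -0.92 and -0.79 with a replicate number left out. In the CPM of single libraries, 24 members had all 4 irradiated libraries below all 4 mock libraries, against 2.01% of all genes, and 33 were lower in 4 of 4 pairs, against 21.9% of all genes.

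Fold changes across all genes rose with GC content in this comparison (Pearson's r = 0.561 over 15855 genes, a description, since genes of one set of libraries are not independent). In the longest GENCODE transcript of each gene, the median GC content was 44.1% for the members against 49.5% for all genes. With GC content and gene length corrected for, 27 members were lower, against 1.69% of all genes, and the median was -0.78. Of these members, 9 had a log2 fold change of -1 or lower, against 56 of all 15892 genes. The call was lost by *Ska2*, which moved from -0.42 to -0.20 (corrected adjusted p = 0.232), by *Cenpl*, from -0.54 to -0.25 (0.286), and by *Mis12*, from -0.35 to -0.27 (0.0951). *Knl1*, with a GC content of 37.7%, moved from -1.58 to -1.17, and *Aurkb*, with 52.5%, moved from -1.04 to -1.15.

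**Figure D3:**
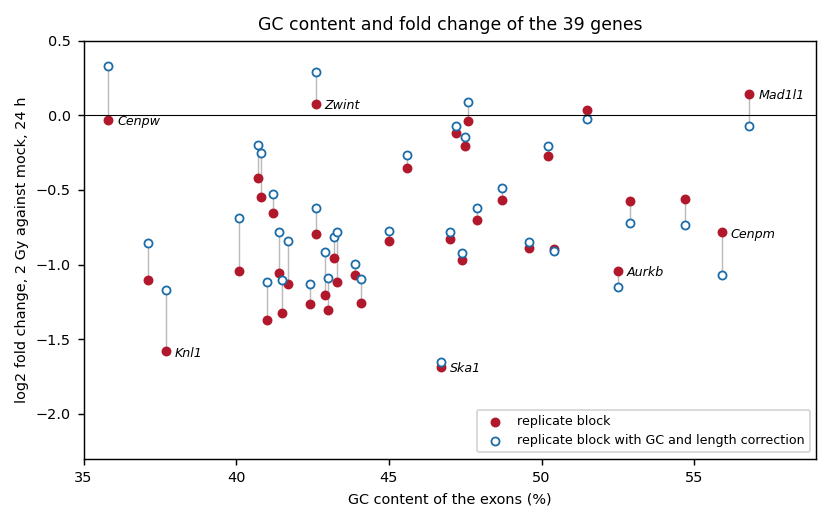
Log2 fold change at 24 h after 2 Gy against the GC content of the longest transcript, for each member, in the paired fit (filled) and corrected for GC content and length (open), joined by a line. *Knl1* moves up from -1.58 to -1.17, and *Cenpm* moves down from -0.78 to -1.07.

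At the centromere, *Cenpa*, the histone H3 variant that marks it, was at 17.8, 19.9, 18.4 and 17.0 CPM in mock-irradiated replicates 1 to 4 and at 12.7, 12.2, 12.7 and 11.7 CPM after 2 Gy. Every irradiated library was below every mock library. The log2 fold change was -0.56 ± 0.10 (SE; adjusted p = 0.0148).

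Of the 12 CCAN genes, 8 were lower and 0 higher, with a median log2 fold change of -0.81. *Cenpi*, a subunit of the CENP-H/I/K/M group (chrX:134308084-134362639, mm10), was at 11.7, 13.6, 7.02 and 9.88 CPM in mock-irradiated cells and at 5.72, 4.91, 3.44 and 5.98 CPM after 2 Gy. The groups did not overlap, and the log2 fold change was -1.06 ± 0.15 (adjusted p = 0.00664). The other 3 subunits of that group were lower too, with log2 fold changes of -1.10 (*Cenpk*), -1.07 (*Cenph*) and -0.78 (*Cenpm*). In the CENP-O/P/Q/U group, *Cenpu* (-1.26) and *Cenpq* (-0.96) were lower, whereas *Cenpp* (-0.66, adjusted p = 0.0588) and *Cenpo* (-0.27, adjusted p = 0.151) were not called. *Cenpl* (-0.54, not called with GC content corrected for) and *Cenpn* (-0.83), which pair in binding CENP-A nucleosomes, were lower.

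Neither gene of the histone fold pair of the CCAN was called. *Cenpw* was at 2.30, 2.33, 3.67 and 1.52 CPM in mock-irradiated cells and at 1.70, 1.83, 4.34 and 1.89 CPM after 2 Gy. The groups overlapped, with replicate 3 highest in both, and the log2 fold change was -0.03 ± 0.21 (adjusted p = 0.936). For its partner *Cenpt* it was 0.04 ± 0.08 (adjusted p = 0.784), with levels of 30.5 to 46.6 CPM in mock-irradiated cells and 31.3 to 46.6 CPM after 2 Gy. The sign of each of these values changed with the correction for GC content, to 0.33 for *Cenpw* and -0.02 for *Cenpt*.

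The MIS12 complex links the inner to the outer kinetochore, and 2 of its 4 genes were lower. *Nsl1* was at 5.34, 6.85, 9.04 and 5.33 CPM in mock-irradiated cells and at 2.93, 2.94, 5.18 and 3.31 CPM after 2 Gy. The highest irradiated library, replicate 3, was just below the lowest mock library, and the log2 fold change was -0.89 ± 0.15 (adjusted p = 0.0128). *Mis12* itself had a smaller difference of -0.35 ± 0.09 (adjusted p = 0.0349), which was not called with GC content corrected for. *Dsn1* was at 21.8, 17.2, 13.9 and 19.0 CPM in mock-irradiated cells and at 16.7, 14.8, 15.03 and 18.9 CPM after 2 Gy. Its groups overlapped (log2 fold change -0.12 ± 0.11, adjusted p = 0.502), and *Pmf1* was not called either (-0.21, adjusted p = 0.241).

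Of the 2 genes of the KNL1 complex, 1 was lower. *Knl1*, the scaffold on which checkpoint proteins assemble (chr2:119047119-119105501, mm10), was at 19.8, 22.04, 9.15 and 17.8 CPM in mock-irradiated cells and at 6.81, 6.51, 2.69 and 7.13 CPM after 2 Gy. Replicate 3 was the lowest library in both groups, and no irradiated library reached the mock range. The log2 fold change was -1.58 ± 0.12, with the smallest adjusted p of all members (0.00144). *Zwint*, its binding partner, was at 216, 234, 252 and 183 CPM in mock-irradiated cells and at 227, 243, 240 and 214 CPM after 2 Gy. The ranges overlapped, and the log2 fold change was 0.08 ± 0.09 (adjusted p = 0.576).

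All 4 genes of the NDC80 complex, the main microtubule coupler, were lower. *Ndc80* was at 12.1, 12.9, 10.9 and 12.1 CPM in mock-irradiated cells and at 5.18, 4.42, 4.99 and 5.35 CPM after 2 Gy. The replicates lay close together, and every irradiated library was near the group mean, with a log2 fold change of -1.27 ± 0.13 (adjusted p = 0.00221). *Nuf2*, its partner at the microtubule end, differed by -1.13, and *Spc25*, at the kinetochore end, by -0.79. *Spc24* was at 3.72, 4.71, 9.11 and 4.44 CPM in mock-irradiated cells and at 2.32, 3.44, 5.66 and 3.16 CPM after 2 Gy. It was lower in 4 of 4 pairs although the groups overlapped, since replicate 3 was high in both (log2 fold change -0.58 ± 0.14, adjusted p = 0.0342).

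The SKA complex tracks microtubule ends together with NDC80, and its 3 genes were lower. *Ska1* had the most negative log2 fold change of all members (-1.69 ± 0.22, adjusted p = 0.00510), from 3.05, 4.15, 3.49 and 3.14 CPM in mock-irradiated cells to 1.02, 1.25, 1.41 and 0.668 CPM after 2 Gy. These are among the lowest levels of the 39 genes, yet the highest irradiated library was below the lowest mock library. *Ska2* was at 34.5, 41.3, 33.7 and 27.1 CPM in mock-irradiated cells and at 25.3, 26.2, 24.2 and 24.9 CPM after 2 Gy. The difference was -0.42 ± 0.11 (adjusted p = 0.0347) and was not called with GC content corrected for, and that of *Ska3* was -0.84 ± 0.15 (adjusted p = 0.0163).

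In the fibrous corona, *Cenpe*, a kinesin motor that moves chromosomes to the spindle equator, was at 45.1, 57.5, 32.9 and 39.04 CPM in mock-irradiated cells and at 21.2, 22.9, 11.5 and 20.7 CPM after 2 Gy. *Cenpf*, a large coiled-coil protein, was at 44.0, 49.4, 32.0 and 37.1 CPM and at 19.3, 26.1, 12.1 and 18.6 CPM. Neither gene had an irradiated library in the mock range. The log2 fold changes were -1.21 ± 0.11 and -1.12 ± 0.11 (adjusted p = 0.00186 for each).

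Of the 6 checkpoint genes, 4 were lower. *Bub1*, a kinase that marks kinetochores for the checkpoint (chr2:127801122-127831865, mm10), was at 23.0, 26.0, 14.1 and 21.1 CPM in mock-irradiated cells and at 7.63, 9.41, 5.42 and 9.88 CPM after 2 Gy. The lowest mock library, replicate 3, was still above every irradiated library, and the log2 fold change was -1.37 ± 0.12 (adjusted p = 0.00164). *Ttk*, the kinase that starts checkpoint signalling, differed by -1.31, *Mad2l1*, which codes for MAD2, by -1.05, and *Bub1b*, which codes for BUBR1, by -0.89. *Bub3* binds BUB1 and BUBR1 and was at 70.9, 74.1, 75.5 and 67.4 CPM in mock-irradiated cells and at 65.7, 65.0, 90.9 and 60.9 CPM after 2 Gy. It was lower in 3 of 4 pairs and higher in replicate 3, with a log2 fold change of -0.04 ± 0.10 (adjusted p = 0.820) that turned to 0.09 with GC content corrected for. *Mad1l1*, which anchors MAD2 at kinetochores, was not called (0.15 ± 0.10, adjusted p = 0.360, and -0.07 with the correction).

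All 5 genes of the chromosomal passenger complex and of shugoshin were lower. *Sgo1*, which protects cohesion at the centromere, was at 8.89, 11.5, 6.84 and 8.15 CPM in mock-irradiated cells and at 3.75, 3.88, 3.16 and 3.16 CPM after 2 Gy. The irradiated libraries lay within a narrow range below all mock libraries, with a log2 fold change of -1.33 ± 0.14 (adjusted p = 0.00248). *Aurkb*, the Aurora B kinase that corrects wrong attachments, differed by -1.04, *Birc5*, which codes for survivin, by -0.97, and *Incenp*, the scaffold, by -0.56. *Cdca8*, which codes for borealin, was at 13.5, 17.2, 21.0 and 14.6 CPM in mock-irradiated cells and at 8.38, 8.39, 15.7 and 8.99 CPM after 2 Gy. It was lower in every pair, but irradiated replicate 3 was above 2 of the mock libraries, and the log2 fold change was -0.70 ± 0.12 (adjusted p = 0.0145).

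**Figure D4:**
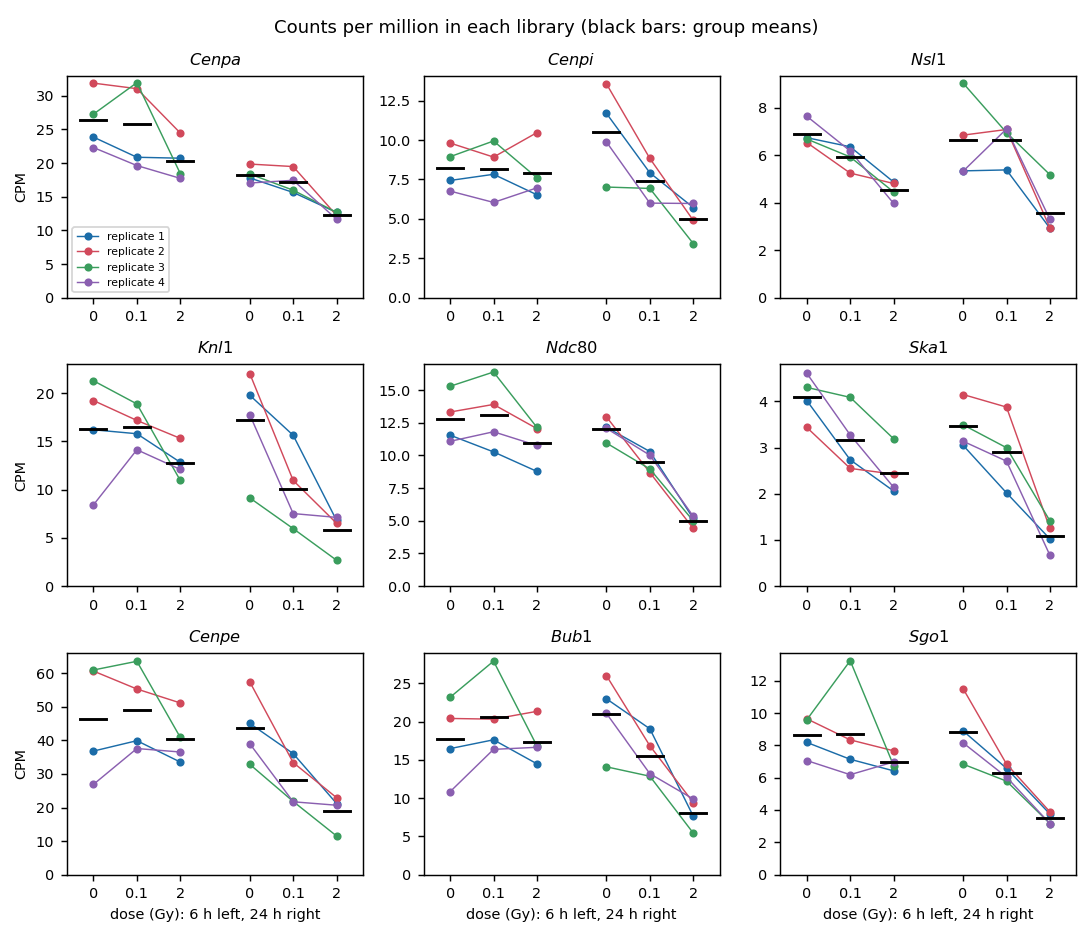
CPM of the member with the smallest adjusted p in each role group, in every library, by dose at 6 h (left) and 24 h (right), with lines joining libraries of one replicate number within a time and black bars for group means. At 24 h the 2 Gy libraries of *Ndc80* lie between 4.42 and 5.35 CPM and the mock libraries between 10.9 and 12.9 CPM.

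Several members overlap a gene on the other strand, and whether the counting used strand is not given in the sources used here. No overlapping gene that was tested was called at 24 h after 2 Gy, the lowest adjusted p being 0.0681 for *Omd*, which lies within *Cenpp*. *Ogn*, also within *Cenpp*, had a median of 4894 counts per library against 123 for *Cenpp*, so the value of *Cenpp* is uncertain. *Ska3*, which was lower, had a median of 212 counts and overlaps *Sap18* (4472 counts, log2 fold change 0.032) by 78 bases. *Cenpq* (290 counts) overlaps *Mut* (1578 counts, 0.0021) by 363 bases, and *Mis12* (1001 counts) overlaps *Derl2* (1705 counts, -0.043) by 231 bases. *Cenpu* overlaps *Primpol* (-0.26) and *Bub3* overlaps *Fgfr2* (-0.15). The part of these overlaps in the counts was not tested.

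At 6 h after 2 Gy, 0 members were called in the paired fit and 14 were below an unadjusted p of 0.05 (6.88% of all genes), with 0% of all 15994 genes called. Without the pairing edgeR also called 0, with 8 at an unadjusted p under 0.05 (1.34% of all genes), and DESeq2 called 0 with the pairing (0.508% of all genes) or without it (0.00333%). The median log2 fold change of the members was -0.18 (0.0022 for all genes), and 32 of 39 values were negative. In single libraries, 6 members had all irradiated libraries below all mock libraries, against 0.707% of all genes, and 17 were lower in 4 of 4 pairs, against 8.55%. *Cdca8* had the smallest adjusted p, at 21.7, 24.9, 23.5 and 18.8 CPM in mock-irradiated cells and 14.4, 17.2, 19.6 and 13.8 CPM after 2 Gy (log2 fold change -0.46 ± 0.10, adjusted p = 0.264). *Ska1* (-0.73 ± 0.16, adjusted p = 0.301), *Nsl1* (-0.60 ± 0.13, adjusted p = 0.275) and *Bub1b* (-0.37 ± 0.09, adjusted p = 0.347) came next. *Knl1* had a value of -0.30 at this time, and *Ndc80* and *Bub1* values of -0.23 and -0.0084, the last of which turned positive without replicate 1 or without replicate 3. Across all genes, fold changes fell with GC content at this time (r = -0.371), where they rose with it at 24 h. With the correction for GC content and length, the median of the members was -0.27. Then 23 members were below an unadjusted p of 0.05, against 11.3% of all genes. At an adjusted p under 0.05, 2 members were lower, against 0.138% of all genes, with *Cdca8* (adjusted p = 0.0337) among them.

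The effect of 2 Gy at 24 h was compared with that at 6 h by the interaction of dose and time, with replicates paired within a time. For 16 members the difference was negative at an adjusted p under 0.05 and for 0 positive, against 3.23% and 3.55% of all 16866 genes tested. The median difference was -0.61 on the log2 scale for the members and 0.0024 for all genes. *Bub1* (-1.36 ± 0.21) and *Ndc80* (-1.03 ± 0.16) had the smallest adjusted p (0.0183 for each). Among the others were *Knl1* (-1.27), *Ttk* (-1.14), *Cenpe* (-1.06), *Sgo1* (-1.01), *Cenpi* (-0.98) and *Nuf2* (-0.96). *Ska1*, already lower at 6 h in each pair, had a difference of -0.94 that was not called (adjusted p = 0.0516). Without the pairing 0 members were called (19 at an unadjusted p under 0.05, against 4.9% of all genes), and 0 were called without replicate 1 or without replicate 2. There were 21 without replicate 3, against 23.4% of all genes, and 9 without replicate 4, against 0.814%. Across all genes, the difference rose with GC content (r = 0.573). With the correction for GC content and length, the median of the members was -0.53, and 13 were called, against 0.949% of all genes. The correction ended the call of *Cenpi* (-0.60, adjusted p = 0.0609), *Nuf2* (-0.56, adjusted p = 0.0899), *Mad2l1* (-0.38, adjusted p = 0.134) and *Cenpf* (-0.31, adjusted p = 0.155). *Incenp* gained one, moving from -0.29 to -0.53 (adjusted p = 0.0373).

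At 24 h after 0.1 Gy, 8 members were lower and 0 higher, against 4.5% of all 16183 genes lower and 2.34% higher. The median log2 fold change was -0.21 for the members and -0.0033 for all genes. For the members it was -0.14 with GC content and length corrected for, and -0.12 with scaling by library size alone. *Knl1* was at 15.6, 10.96, 5.97 and 7.53 CPM, which overlaps the 9.15 to 22.04 CPM of mock-irradiated cells, and it was lower in 4 of 4 pairs (log2 fold change -0.81 ± 0.14, adjusted p = 0.0262). *Cenpe* (-0.65 ± 0.11) and *Cenpf* (-0.60 ± 0.11) had the same adjusted p. The others were *Cenpi* (-0.49), *Sgo1* (-0.48), *Cenpq* (-0.47), *Bub1* (-0.44) and *Nuf2* (-0.43). *Spc24* stood at the other end, with a value of 0.38 that was not called (adjusted p = 0.181). In single libraries, 6 members had all 0.1 Gy libraries below all mock libraries, *Nuf2* and *Ndc80* among them, against 0.544% of all genes, and 18 were lower in 4 of 4 pairs, against 16.2%.

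These calls after 0.1 Gy were less stable than those after 2 Gy in the settings tried. Without the pairing, edgeR called 0 members (5 at an unadjusted p under 0.05, against 1.49% of all genes) and DESeq2 called 0. With the pairing kept, one fit of all 24 libraries called 0 members and 0% of all 17353 genes, where it called 31 members and 19.7% of all genes at 24 h after 2 Gy. With replicate 2 or replicate 4 left out 0 were called, without replicate 1 there were 4 (7.18% of all genes), and without replicate 3 there were 12 lower and 3 higher (23.2% of all genes called). Fold changes rose with GC content here as well (r = 0.585 over all genes). With that corrected for, 2 members were lower, *Cenpe* (-0.38, adjusted p = 0.0231) and *Knl1* (-0.43, adjusted p = 0.0488), against 0.538% of all genes. The corrected values of the other 6 ranged from -0.35 (*Cenpq*) to -0.19 (*Nuf2*). The comparisons of 0.1 Gy and of 2 Gy with mock-irradiated cells share their 4 mock libraries.

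At 6 h after 0.1 Gy, 0 members were called in the paired fit (2 at an unadjusted p under 0.05, against 3.97% of all genes), without the pairing or by DESeq2, with 0% of all 16020 genes called. The median log2 fold change was -0.0072, and 22 of 39 values were negative. One member, against 0.212% of all genes, had all irradiated libraries below all mock libraries, and 2 were lower in 4 of 4 pairs, against 6.65%. *Ska1* had the most negative value, -0.39 on the log2 scale, and *Bub1* the most positive, 0.23.

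**Figure D5:**
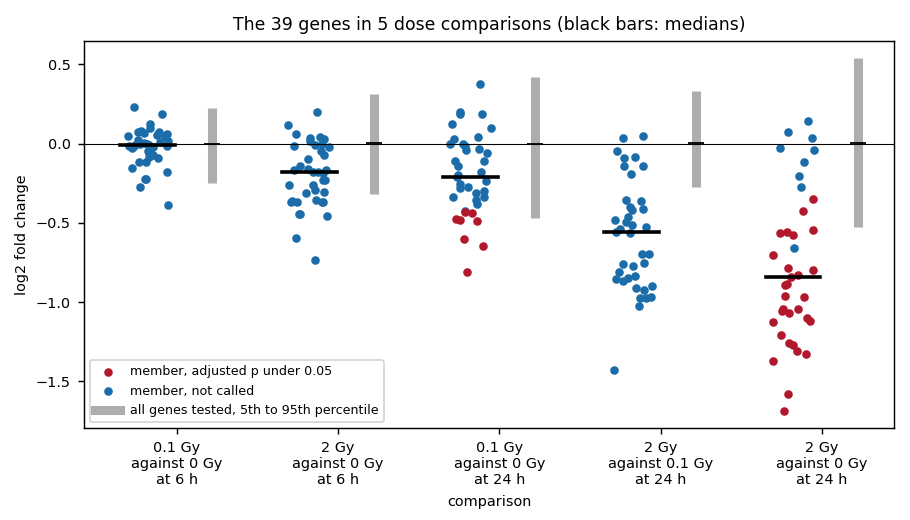
Log2 fold changes of the 39 members in 5 dose comparisons (points, red where called; black bars are medians), beside the 5th to 95th percentile of all genes tested (grey bars). The medians of the members are -0.0072 and -0.18 at 6 h after 0.1 and 2 Gy, and -0.21, -0.56 and -0.84 at 24 h for 0.1 Gy against mock, 2 Gy against 0.1 Gy and 2 Gy against mock.

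Between 2 Gy and 0.1 Gy at 24 h, no member passed in the paired fit and 0% of all 16002 genes did, while 29 members and 4.94% of all genes were below an unadjusted p of 0.05. The median log2 fold change of the members was -0.56 (0.0041 for all genes), and 37 of 39 values were negative. In single libraries, 19 members had all 2 Gy libraries below all 0.1 Gy libraries, against 1.06% of all genes, and 32 were lower in 4 of 4 pairs, against 7.56%. *Ndc80* was at 10.3, 8.69, 8.96 and 10.02 CPM after 0.1 Gy and had the smallest adjusted p (log2 fold change -0.91 ± 0.11, adjusted p = 0.0639). *Ska1* had the most negative value (-1.43 ± 0.22, adjusted p = 0.0810), and *Ttk* (-0.97), *Bub1* (-0.92), *Aurkb* (-0.86) and *Mad2l1* (-0.77) were also negative without a call. Other settings did call members here. DESeq2 called 17 with the pairing (0.742% of all genes) and 9 without it (0.208%). The correction for GC content and length gave 14 lower members (0.612% of all genes), and 25 were called with no filter on low counts (0.791%).

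In mock-irradiated cells, 0 members differed between 24 h and 6 h, while 3.46% of all 15887 genes were lower and 3.24% higher at 24 h. The members with an edgeR p below 0.05 before adjustment numbered 8, against 24.7% of all genes, and DESeq2 called 1 member and 11.7% of all genes. *Cenpa* had the smallest adjusted p, from 22.3 to 31.9 CPM at 6 h and from 17.0 to 19.9 CPM at 24 h, which do not overlap (log2 fold change -0.54 ± 0.15, adjusted p = 0.0673). With a replicate block its adjusted p was 0.0466, and with GC content and length corrected for 0.0276. *Dsn1* (0.53, adjusted p = 0.119), *Cenpk* (0.59, adjusted p = 0.173), *Cenpm* (-0.76, adjusted p = 0.111) and *Spc24* (-0.71, adjusted p = 0.193) were not called. The summed CPM of the 39 genes were 971 ± 80.1 at 6 h and 925 ± 78.1 at 24 h (mean ± SD, n = 4).

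Summed over the 39 genes, the level at 6 h was 968 ± 120 CPM (mean ± SD, n = 4) after 0.1 Gy and 900 ± 53.0 CPM after 2 Gy. At 24 h it was 842 ± 35.5 CPM after 0.1 Gy and 689 ± 40.2 CPM after 2 Gy. The 2 Gy libraries at 24 h lay between 653 and 744 CPM, below the 825.5 to 1007 CPM of mock-irradiated cells, and *Zwint* alone made up 183 to 252 CPM of the latter.

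Of 30 further genes of kinetochore and checkpoint that are no members, 17 were lower and 1 higher at 24 h after 2 Gy, against 6.69% and 6.53% of all genes, with a median log2 fold change of -0.61. Among those that were lower were *Ercc6l* (-1.40), *Sgo2a*, a shugoshin (-1.33), and *Kntc1* (-1.13). *Cenpb*, which binds a repeat motif in centromeric DNA, was higher (0.39 ± 0.09, adjusted p = 0.0321). After 0.1 Gy at 24 h, 5 of the 30 were lower, against 4.5% of all genes, and at 6 h none was called after either dose. For 7 of them the effect of 2 Gy was more negative at 24 h than at 6 h, against 3.23% of all genes, and for *Cenpb* it was more positive, against 3.55%. Without the pairing 0 of the 30 were called in each dose comparison.

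The marker lists were compared in the same paired fit at 24 h after 2 Gy, in which 6.53% of all genes were higher and 6.69% lower. Without the pairing, edgeR called 0 genes of each list. The median log2 fold change was 0.06 for the 12 astrocyte markers, with 2 higher and 0 lower. It was 0.08 for the 14 microglial markers, with 1 higher and 1 lower, 0.13 for the 8 neuron markers tested (1 higher), -0.02 for the 9 tested of the oligodendrocyte lineage (1 higher) and -0.03 for the 11 tested of fibroblasts and vessels (1 higher).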

How the data were processed

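The authors deposited raw counts per gene, 1 file for each of 24 libraries, with coordinates of mm10 per the labels, from poly(A)-selected RNA. The aligner, the counting tool and the use of strand are not given in the sources used here. Groups and replicate numbers were taken from the labels. The 39 members and all gene lists were chosen with earlier results of these data known.

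Counts were fitted in R 4.3.3 with edgeR 4.0.16 (TMM, its filter on low counts, quasi-likelihood test, Benjamini-Hochberg adjustment over all genes tested, calls at an adjusted p under 0.05). The main fit for doses held the replicate number as a block, since the members were to be compared in pairs by number within a time; 24 h against 6 h was fitted without it. Same-numbered libraries deviated together from their group means in every dose comparison (r = 0.514 to 0.907 across genes), while what a number marks is not stated in the sources used here. The study's discussion notes that cells were freshly isolated for every experiment. No 2 libraries of a group agreed within sampling noise (36 pairs, chi-square of at least 28.33 for each degree of freedom). Each was counted as 1 replicate. Whether they came from separate isolations cannot be told from this check, since it compares libraries with sampling noise only. With the block, p-values measure how far the differences between same-numbered libraries spread. Without it, they measure the spread between the libraries of a group.

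Every member may be named. Members with values of each library are those with the smallest and the largest adjusted p of their role group at 24 h after 2 Gy. Of the other kinetochore genes, those called in a dose comparison or at either end of the list may be named, with genes overlapping a member. Alternatives used DESeq2 1.42.0, limma 3.58.1, other normalizations, filters and thresholds, a correction by splines (5 degrees of freedom) for GC content and length, and replicates left out. Scripts were tested on simulated data. Logarithms of single libraries used a prior count of 2. Promoters are from RefSeq. The values of some single genes in these lists are not reported here.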

Additional observations from a re-analysis of the deposited data

Results flagged for a closer look

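Among 246 groups of 4 libraries (39 members and the summed levels of the members and of the microglial markers, in 6 groups each), 23 held a library far from the other 3 by Dixon's criterion, which chance gives in about 1 of 20 groups. Replicate 3 at 24 h after 2 Gy was such a library for 8 members. It was high for *Cenph* (4.48 CPM), *Cenpp* (4.34 CPM), *Cenpw* (4.34 CPM), *Nsl1* (5.18 CPM), *Bub3* (90.9 CPM), *Mad1l1* (29.2 CPM) and *Cdca8* (15.7 CPM), and low for *Knl1* (2.69 CPM). In mock-irradiated cells at 24 h, replicate 3 was high for *Pmf1* (16.4 CPM against 7.46 to 8.23 in the others) and *Mad1l1* (29.9 CPM), and replicate 2 for *Bub1b* (27.2 CPM). After 0.1 Gy at 24 h, replicate 1 was low for *Cenph* (3.11 CPM) and *Nsl1* (5.38 CPM).

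At 6 h, replicate 3 was high for *Birc5* in mock-irradiated cells (23.0 CPM) and after 0.1 Gy (26.2 CPM), and after 0.1 Gy also for *Cenpk* (5.85 CPM) and *Bub3* (96.9 CPM), while replicate 2 was low for *Pmf1* (10.1 CPM). Replicate 2 was high for *Cenpw* in mock-irradiated cells (4.30 CPM) and for *Nuf2* after 2 Gy (27.1 CPM), and replicate 1 was low for *Mad2l1* after 2 Gy (16.7 CPM). Replicate 2 was low in summed microglial markers, at 459 CPM at 6 h after 2 Gy and at 447.5 CPM at 24 h after 0.1 Gy.

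For 16 members, the effect of 2 Gy at 24 h minus that at 6 h passed the test of the interaction, each with a negative difference on the log2 scale. The differences were -1.36 for *Bub1*, -1.27 for *Knl1*, -1.14 for *Ttk*, -1.06 for *Cenpe*, -1.03 for *Ndc80*, -1.01 for *Sgo1*, -0.98 for *Cenpi*, -0.96 for *Nuf2*, -0.94 for *Cenpq*, -0.90 for *Spc25*, -0.87 for *Mad2l1*, -0.86 for *Cenpn*, -0.77 for *Aurkb*, -0.74 for *Cenpf*, -0.60 for *Birc5* and -0.52 for *Bub1b*. With GC content and length corrected for, *Cenpi*, *Nuf2*, *Mad2l1* and *Cenpf* no longer passed.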

How the results depend on the processing

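Shares in brackets are of all genes called in the same fit. At 24 h after 2 Gy, 27 to 31 members were called under DESeq2, voom, other scalings, other filters, the correction for GC content and length and one fit of all 24 libraries, each with the replicate block (3.51% to 19.7%). Without the replicate block 0 were called by edgeR (0%) and 19 by DESeq2 (0.727%), with one replicate left out 9 (0.432%) to 32 (33.1%), at an adjusted p under 0.01 14 (0.956%), and with a log2 fold change of at least 1 either way 15 (0.812%). At 6 h after 2 Gy, no filter gave 3 calls (0.871%), the correction 2 (0.719%), one fit of all libraries 1 (0.449%) and leaving out a replicate 0 (0%) to 3 (0.799%). At 24 h after 0.1 Gy, the fit without the block gave 0 in edgeR (0%) and 0 in DESeq2 (0%), library size alone 4 (11.1%), the correction 2 (1.89%), one fit 0 (0%), an adjusted p under 0.01 0 (0.00618%), a log2 fold change of at least 1 0 (0.21%) and leaving out a replicate 0 (0.0987% or 0.13%) to 15 (23.2%). At 6 h after 0.1 Gy every setting gave 0 (at most 0.0806%). Between 2 Gy and 0.1 Gy the calls numbered 17 (0.742%) and 9 (0.208%) in DESeq2 with and without the block, 9 (0.256%) with library size alone, 25 (0.791%) with no filter, 14 (0.65%) with the correction, 19 (0.916%) in one fit and 0 (0%) to 18 (1%) with a replicate left out. For the interaction they numbered 0 (0%) without the block, 1 (0.0125%) in DESeq2 without it, 0 (0%) at an adjusted p under 0.01, 6 (1.2%) with a log2 fold change of at least 1 and 0 (0%) to 21 (23.4%) with a replicate left out. Between 24 h and 6 h the replicate block (15.3%), DESeq2 (11.7%) and the correction (9.91%) gave 1 call each, one fit 2 (14.3%) and leaving out a replicate 0 (0% to 7.44%) to 1 (12.8%). The cause of these changes was not tested.

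Of 1403 values of single genes under another setting, 1022 kept their sign and their side of the threshold, 299 lost a call, 69 gained one and 13 changed sign. At 24 h after 2 Gy the correction turned *Mad1l1* to -0.072, *Cenpt* to -0.022, *Bub3* to 0.092 and *Cenpw* to 0.33. *Bub3* also turned with library size alone (0.0003333), and with a replicate left out it ranged from -0.14 to 0.0040. *Cenpw* turned under voom (0.0004433) and with library size alone (0.011), and with a replicate left out it ranged from -0.15 to 0.077. *Bub1* at 6 h after 2 Gy ranged from -0.19 to 0.14 with a replicate left out.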
